A study of Mus musculus with 6 samples.

Results

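A group of 10 endothelial genes was followed in liver RNA of control and Mttp-IKO mice, chosen by symbol from the 41388 genes counted in each library. All 10 passed the filter on low counts that left 17287 genes for testing. They were the sinusoidal genes Stab1, Stab2, Lyve1, Clec4g and Oit3, the genes Pecam1, Cdh5, Nos3 and Kdr that are shared by many endothelial cells, and Cd34, a gene typical of capillaries with a closed lining. Liver sinusoids are lined by a fenestrated endothelium that has no continuous basement membrane. It clears waste macromolecules from blood through scavenger receptors, the stabilins among them. In chronic liver injury this endothelium can lose its fenestrae and take on features of ordinary capillaries, a process known as capillarization in which Cd34 is often used as a marker. Nos3, the gene of endothelial nitric oxide synthase, encodes the enzyme that makes the vasodilator nitric oxide in these cells.

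By the study's methods, mice of both groups were of the Mttp f/f Villin Cre ERT2 line. Mttp encodes the lipid transfer protein needed for chylomicron assembly, and the Villin promoter drives the tamoxifen-activated recombinase in intestinal epithelium, not in liver. Tamoxifen was injected for 5 days to give Mttp-IKO mice, and control littermates, named wild type in the labels, received vehicle. Male mice of 12 to 16 weeks on a C57BL/6 background were fed a methionine/choline-deficient (MCD) diet for 3 weeks. The diet began 3 weeks after injection, and livers were taken after a 4 h fast. Each genotype was represented by 3 pools of liver RNA from 3 to 4 mice each, although the labels give 12 livers in all. A replicate was thus a pool, and the p-values measured the spread between pools only. Cells were not sorted, and in such bulk RNA fewer cells of a type and less RNA per cell cannot be told apart.

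The pools held 25271585 to 36238734 reads on genes, so that 3 reads corresponded to 0.0828 to 0.119 CPM, the count of a gene per 1000000 reads of the library. Hepatocyte and endothelial markers were present in every pool. Control pool 2 also held RNA of striated muscle genes (a summed 567 CPM over 6 genes, against 0.937 to 67.9 CPM in the other control pools and 0.545 to 1.16 CPM in Mttp-IKO pools). In Mttp-IKO pool 3 small RNA genes took 0.289% of the reads, where the other pools had 1.92% to 3.51%. Levels below are CPM scaled by the trimmed mean of M values (TMM), listed in the order of pools 1 to 3. Log2 fold changes compare Mttp-IKO with control in edgeR, and adjusted p-values cover all 17287 genes. None of the 10 genes passed an adjusted p of 0.05, whereas 4.01% of all genes tested did (3.09% lower and 0.92% higher in Mttp-IKO). Of all genes tested, 49.5% had a log2 fold change below 0, the share to set beside counts of lower genes below. An unadjusted p under 0.05 was found for 3 of the 10 (Stab1, Nos3 and Cd34), a share near the 23% of all genes tested. In 3 of the 10 genes (Stab1, Cdh5 and Cd34) every Mttp-IKO pool was below every control pool, a pattern found in 16.5% of all genes. In 2 (Clec4g and Nos3) every Mttp-IKO pool was above every control pool, as in 14.5% of all genes. For such genes the two-sided exact permutation test gave p = 0.1, the smallest that 3 pools against 3 allow.

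Because the 2 stabilin genes and Cd34 are contrasted below, the sequences around their start sites are shown first. Each runs from 250 bases before to 50 bases after the start on the gene's own strand (RefSeq, GRCm38.p6). Capitals mark the letters GGAAG or their reverse complement CTTCC. They are a form of the core of sites for ETS factors, a family with wide roles in endothelial genes. Other forms, such as GGAAA, are not marked.
Stab1 (chr14:31168592-31168891, minus strand): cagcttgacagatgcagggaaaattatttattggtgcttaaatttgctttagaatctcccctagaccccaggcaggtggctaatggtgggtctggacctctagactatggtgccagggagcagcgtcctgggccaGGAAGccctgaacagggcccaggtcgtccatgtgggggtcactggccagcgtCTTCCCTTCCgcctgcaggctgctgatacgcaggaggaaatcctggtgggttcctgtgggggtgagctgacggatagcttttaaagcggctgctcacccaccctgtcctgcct
Stab2 (chr10:87007893-87008192, minus strand): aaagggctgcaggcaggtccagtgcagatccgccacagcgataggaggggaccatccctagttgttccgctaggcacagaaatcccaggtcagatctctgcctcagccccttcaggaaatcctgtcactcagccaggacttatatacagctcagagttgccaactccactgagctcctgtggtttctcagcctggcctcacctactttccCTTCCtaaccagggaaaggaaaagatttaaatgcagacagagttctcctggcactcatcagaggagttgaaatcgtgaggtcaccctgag
Cd34 (chr1:194938571-194938870, plus strand): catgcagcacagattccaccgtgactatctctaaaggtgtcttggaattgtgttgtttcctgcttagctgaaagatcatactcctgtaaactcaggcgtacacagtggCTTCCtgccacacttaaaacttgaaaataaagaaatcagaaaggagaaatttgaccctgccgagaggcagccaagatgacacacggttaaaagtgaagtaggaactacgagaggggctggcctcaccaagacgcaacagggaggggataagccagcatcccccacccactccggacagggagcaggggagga
The marked letters were matched 3 times for Stab1 and once each for Stab2 and Cd34. They occur on either strand in 71.4% of 32851 promoters of the same length, so a match was common. The letters GATAA or TTATC, a form of GATA sites, were matched in the Cd34 sequence and in neither stabilin sequence, against 25.4% of all promoters. The shorter letters GATA do occur in both stabilin sequences. The reference table held such sequences for 5 of the 10 genes, and for Clec4g and Kdr the letters GGAAG or CTTCC were matched 3 times and once.

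Nos3 was also covered by a quantitative PCR primer pair of the study. These were forward ttgtctgcggcgatgtca and reverse gaattctctgcacggtttgca, and are shown because the gene overlaps others on the opposite strand. The 57 nt product, with the primer sites in capitals, was matched without mismatch to Nos3 alone among GENCODE M21 transcripts.
Nos3 product (chr5:24383609-24383665, plus strand): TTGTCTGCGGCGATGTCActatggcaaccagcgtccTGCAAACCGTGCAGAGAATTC
It lies in coding sequence of exon 25 of 26, and 6 of its bases fall within exons annotated on the opposite strand.

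The stabilin genes, whose products are large scavenger receptors of sinusoidal endothelium, differed in pattern, with Stab1 lower and Stab2 close to level on average. Stab1 (ENSMUSG00000042286, chromosome 14, 31139013 to 31168641) was at 249, 181 and 233 CPM in the controls. In Mttp-IKO pools it was at 132, 139 and 169.8 CPM. Every Mttp-IKO pool was below every control pool, although control pool 2 and Mttp-IKO pool 3 were close. Its log2 fold change was -0.59 (standard error 0.191, 95% interval -1.03 to -0.15), and the adjusted p of 0.121 did not pass. Stab2 (ENSMUSG00000035459, chromosome 10, 86841198 to 87008025) was at 117, 184 and 156 CPM in the controls. Its Mttp-IKO values were 149.9, 178 and 179 CPM. These ranges overlapped, with control pool 1 the lowest and control pool 2 the highest, and the log2 fold change was 0.15 (95% interval -0.32 to 0.62, adjusted p = 0.697). Within a pool, the ratio of Stab1 to Stab2 CPM was 0.983 to 2.13 in controls and 0.781 to 0.946 in Mttp-IKO, with Stab2 above Stab1 in all 3 Mttp-IKO pools and in control pool 2. The difference between the stabilins was not itself tested. Stab1 passed once the trend with gene length was removed (log2 fold change -0.69, adjusted p = 0.0497). The direction for Stab2 turned without control pool 1 (-0.031) and with scaling by total counts (-0.025).

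The other 3 sinusoidal genes were lower, higher and nearly level on average. Lyve1 (ENSMUSG00000030787, chromosome 7, 110850607 to 110862953), which encodes a hyaluronan receptor also found on lymphatic vessels and some macrophages, was at 66.3, 20.5 and 41.8 CPM in the controls. The 3 Mttp-IKO pools had 22.0, 19.8 and 31.9 CPM. Control pool 2 lay within the Mttp-IKO range, and the other control pools were above it. The log2 fold change of -0.80 (95% interval -1.70 to 0.10, adjusted p = 0.265) ranged from -1.16 without control pool 2 to -0.36 without control pool 1. Clec4g (ENSMUSG00000074491, chromosome 8, 3707064 to 3720651), the gene of the sinusoidal lectin LSECtin, was at 23.9, 34.4 and 31.5 CPM in the controls. Mttp-IKO pools 1 to 3 held 39.6, 34.5 and 36.9 CPM. All Mttp-IKO pools were above the controls, although pools 2 of the genotypes nearly touched. The log2 fold change was 0.31 (95% interval -0.09 to 0.70, adjusted p = 0.327). Oit3 (ENSMUSG00000009654, chromosome 10, 59422958 to 59441778) was at 42.5, 49.0 and 46.8 CPM in the controls. In Mttp-IKO pools it was at 37.0, 46.8 and 39.0 CPM. The ranges of Oit3 overlapped, with a log2 fold change of -0.17 (95% interval -0.52 to 0.18, adjusted p = 0.534). With control pool 2 and Mttp-IKO pool 3 left out together, which leaves 2 pools a genotype, 8.78% of all genes were called lower. Among them were 2 of the 10, Stab1 (log2 fold change -0.84, adjusted p = 0.0111) and Lyve1 (-1.38, adjusted p = 0.0126). For both genes control pool 2 was the lowest control and Mttp-IKO pool 3 the highest Mttp-IKO pool. Leaving these pools out thus had to widen both differences, and the fit gives no separate evidence for them.

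**Figure D1:**
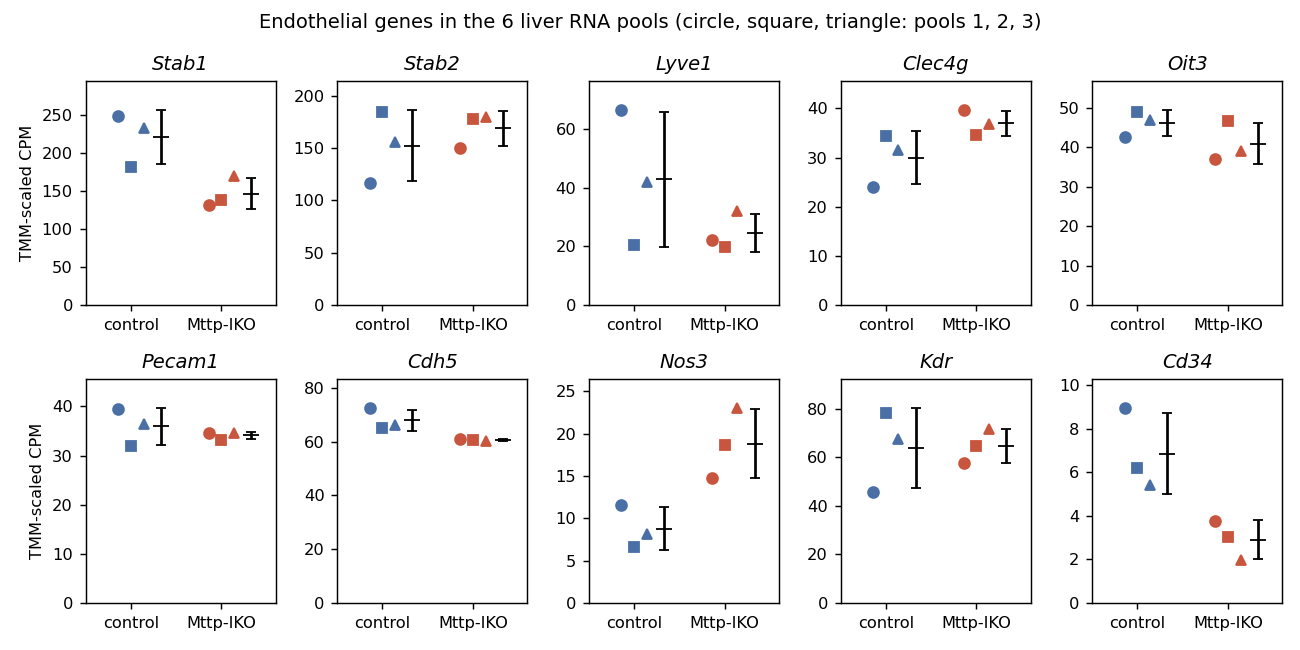
TMM-scaled CPM of each of the 10 genes (vertical axes from 0) in the 3 control pools (blue) and 3 Mttp-IKO pools (red), with circles, squares and triangles for pools 1, 2 and 3 and black bars for mean ± SD (n = 3 pools). Nos3 ran from 6.60 to 11.5 CPM in control pools and from 14.8 to 23.0 CPM in Mttp-IKO pools, and Cd34 from 5.43 to 8.95 CPM and from 1.97 to 3.74 CPM.

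Among the general endothelial genes the intervals of Pecam1, Cdh5 and Kdr spanned 0, and that of Nos3 did not. Pecam1 (ENSMUSG00000020717, chromosome 11, 106654217 to 106750628), which encodes the junctional adhesion molecule CD31, was at 39.4, 31.97 and 36.5 CPM in the controls. Its Mttp-IKO values were 34.5, 33.3 and 34.6 CPM. The Mttp-IKO pools lay inside the control range, and the log2 fold change was -0.07 (95% interval -0.40 to 0.25, adjusted p = 0.789). Cdh5 (ENSMUSG00000031871, chromosome 8, 104101625 to 104144502), the gene of VE-cadherin, was at 72.6, 65.1 and 66.2 CPM in the controls. The 3 Mttp-IKO pools had 61.1, 60.6 and 60.3 CPM. The genotypes did not overlap for Cdh5, but the difference was small (log2 fold change -0.16, 95% interval -0.47 to 0.14, adjusted p = 0.496). Kdr (ENSMUSG00000062960, chromosome 5, 75932827 to 75978458), which encodes the main signaling receptor for VEGF-A, was at 45.7, 78.3 and 67.4 CPM in the controls. Mttp-IKO pools 1 to 3 held 57.7, 64.6 and 71.8 CPM. The Mttp-IKO pools again lay inside the control range (log2 fold change 0.02, 95% interval -0.47 to 0.51, adjusted p = 0.967). Its sign depended on scaling and on single pools, with -0.15 under total counts, -0.19 without control pool 1 and -0.057 without Mttp-IKO pool 3.

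Nos3 (ENSMUSG00000028978, chromosome 5, 24364810 to 24384474) was at 11.5, 6.60 and 8.12 CPM in control pools, from 465, 238 and 260 reads. It was at 14.8, 18.7 and 23.0 CPM in Mttp-IKO pools, from 459, 544 and 549 reads. All 3 Mttp-IKO pools were above all 3 controls, and the mean was 18.8 ± 4.12 CPM (SD, n = 3) against 8.75 ± 2.52 CPM. The log2 fold change was 1.10 (standard error 0.257, 95% interval 0.51 to 1.69), 2.15-fold higher on average, with an adjusted p of 0.0563 that missed the threshold. It passed with the DESeq2 Wald test (adjusted p = 0.00292), without a filter on low counts (0.0349) and after removal of the trend with gene length (0.0459). It did not pass with limma-voom (0.0657), with scaling by total counts (0.0901) or with the replicate number as a block (0.0805). With single pools left out its adjusted p was 0.0781 to 0.221. Of the 4132 exonic bases of Nos3, 1334 (32.3%) were shared with genes on the opposite strand. The antisense gene Gm15587 shared 1040 and Atg9b 294, and the strand setting of the counting is not given in the sources used here. Gm15587, named here after its values were seen, was counted at 47, 24 and 30 reads in control pools and at 50, 75 and 82 reads in Mttp-IKO pools. It was higher on average where Nos3 was higher (log2 fold change 1.45, standard error 0.381, adjusted p = 0.0754). Atg9b, chosen in the same way, had 42, 47 and 14 reads in control pools and 30, 47 and 54 reads in Mttp-IKO pools, and its ranges overlapped. The part of reads from the opposite strand in the Nos3 values was not tested.

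Cd34 (ENSMUSG00000016494, chromosome 1, 194938821 to 194961292), which encodes a sialomucin of capillary endothelium that is also made by haematopoietic progenitors and by fibroblasts of vessel walls, had the lowest mean CPM of the 10 genes in both genotypes. It was at 8.95, 6.18 and 5.43 CPM in control pools, from 361, 223 and 174 reads, and at 3.74, 3.02 and 1.97 CPM in Mttp-IKO pools, from 116, 88 and 47 reads. Every Mttp-IKO pool was below every control pool, with means of 2.91 ± 0.889 CPM and 6.86 ± 1.85 CPM (SD, n = 3). The log2 fold change was -1.23 (standard error 0.307, 95% interval -1.94 to -0.53), 2.35-fold lower on average, with an adjusted p of 0.0664. The call was made with the DESeq2 Wald test (adjusted p = 0.00545), with scaling by total counts (0.0452), without a filter on low counts (0.0473) and with the replicate number as a block (0.0437). No call was made with limma-voom (0.0781) or after removal of the trend with gene length (0.0569). With single pools left out the adjusted p of Cd34 was 0.0808 to 0.246.

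Because Cd34 is not particular to endothelium, marker lists of vessel wall, fibroblast and haematopoietic cells are given beside it. The 9 genes of portal fibroblasts and mesothelium summed to 43.7 to 54.5 CPM in control pools and 12.8 to 27.6 CPM in Mttp-IKO pools, with 8 of 9 lower and 2 that fell (median log2 fold change -1.30). The 5 smooth muscle genes summed to 46.7 to 65.0 CPM and 18.9 to 22.8 CPM, all 5 lower and 3 of them called. Of 6 genes of haematopoietic progenitors 4 were tested, with 2 lower, both called, and 2 higher without a call. The sums over the 6 were 45.6 to 66.5 CPM and 34.5 to 41.4 CPM. Of all genes tested, 49.5% were lower and 3.09% were called lower. No gene of these lists was at 0 in every pool, and the part of these cells in the Cd34 difference was not tested.

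**Figure D2:**
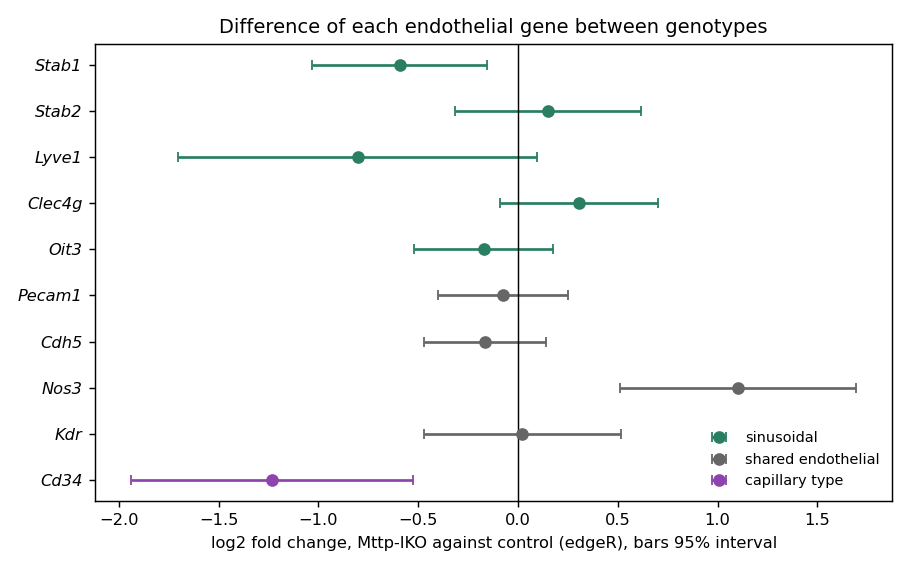
The log2 fold change of each gene (horizontal axis, Mttp-IKO against control, edgeR) with its 95% interval, coloured by role. The intervals of Stab1 (-1.03 to -0.15), Nos3 (0.51 to 1.69) and Cd34 (-1.94 to -0.53) did not reach 0, while no gene passed the adjusted threshold.

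Levels of different genes were compared per length, as TMM-scaled CPM per kilobase (RPKM). In control pools the order of mean RPKM was Stab1 (21.5 ± 3.45), Stab2 (17.4 ± 3.86), Cdh5 (17.0 ± 1.01), Oit3 (16.5 ± 1.17), Lyve1 (16.4 ± 8.79), Clec4g (12.2 ± 2.19), Kdr (8.76 ± 2.28), Pecam1 (5.77 ± 0.601), Cd34 (2.62 ± 0.707) and Nos3 (2.12 ± 0.611; all SD, n = 3). Among neighbours in this order, only Pecam1 and Cd34 had ranges that stood apart. Clec4g, at 9.72 to 13.96 RPKM, was below every pool of Stab1, Cdh5 and Oit3. In Mttp-IKO pools Stab2 (19.3 ± 1.89) came first, apart from Cdh5 (15.2 ± 0.102), and was followed by Clec4g (15.03 ± 1.03), Oit3 (14.7 ± 1.85), Stab1 (14.3 ± 1.97), Lyve1 (9.43 ± 2.46), Kdr (8.89 ± 0.964), Pecam1 (5.48 ± 0.121), Nos3 (4.56 ± 0.997) and Cd34 (1.11 ± 0.339). Stab1 stood apart from Lyve1, Kdr from Pecam1, and Nos3 from Cd34, and the other neighbours overlapped. At the bottom of the order Nos3 was below Cd34 in each control pool (ratios of 0.677 to 0.948) and above it in each Mttp-IKO pool (2.51 to 7.41). The order in control pools depended on the lengths used. By CPM Nos3 was above Cd34 there as well (11.5, 6.60 and 8.12 against 8.95, 6.18 and 5.43). The full length of Nos3 includes the 32.3% of bases shared with genes on the opposite strand, and their effect on the ratio was not tested.

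The sinusoidal genes were set against Cd34 within each pool, which removes the scaling of the library. The mean log2 CPM of the 5 sinusoidal genes exceeded that of Cd34 by 3.01, 3.39 and 3.77 in control pools and by 3.95, 4.32 and 5.10 in Mttp-IKO pools. The genotypes did not overlap, and the means, 3.39 ± 0.378 and 4.45 ± 0.587 (SD, n = 3), differed by 1.06 on the log2 scale. The 4 shared endothelial genes exceeded Cd34 by 2.33 ± 0.339 in control pools and by 3.82 ± 0.586 in Mttp-IKO pools. The sinusoidal mean itself was 6.17, 6.02 and 6.21 in control pools and 5.85, 5.91 and 6.08 in Mttp-IKO pools on the log2 CPM scale. These values include the lower level of Cd34 itself. Per length, 7 of the 9 other genes had a ratio to Cd34 that was higher in every Mttp-IKO pool than in every control pool. The same held for 68.7% of all other genes tested, Cd34 being lower in every Mttp-IKO pool. Stab2 was 3.91 to 8.93 times Cd34 in control pools and 12.0 to 27.2 times in Mttp-IKO pools, and Clec4g 2.85 to 6.17 times and 11.3 to 19.9 times. The ratios of Stab1 (7.09 to 10.9 and 8.97 to 21.9) and Lyve1 (3.33 to 7.73 and 5.93 to 16.3) overlapped. Against the shared endothelial genes the sinusoidal mean was higher by 1.06 ± 0.060 on the log2 scale in control pools and by 0.64 ± 0.025 in Mttp-IKO pools. This contrast includes the higher level of Nos3 (log2 fold change 1.10). Pecam1, Cdh5 and Kdr were at -0.07, -0.16 and 0.02, and the contrast was not tested. Nos3 alone was 0.0978 to 0.153 of Cdh5 per length in control pools and 0.234 to 0.369 of it in Mttp-IKO pools.

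**Figure D3:**
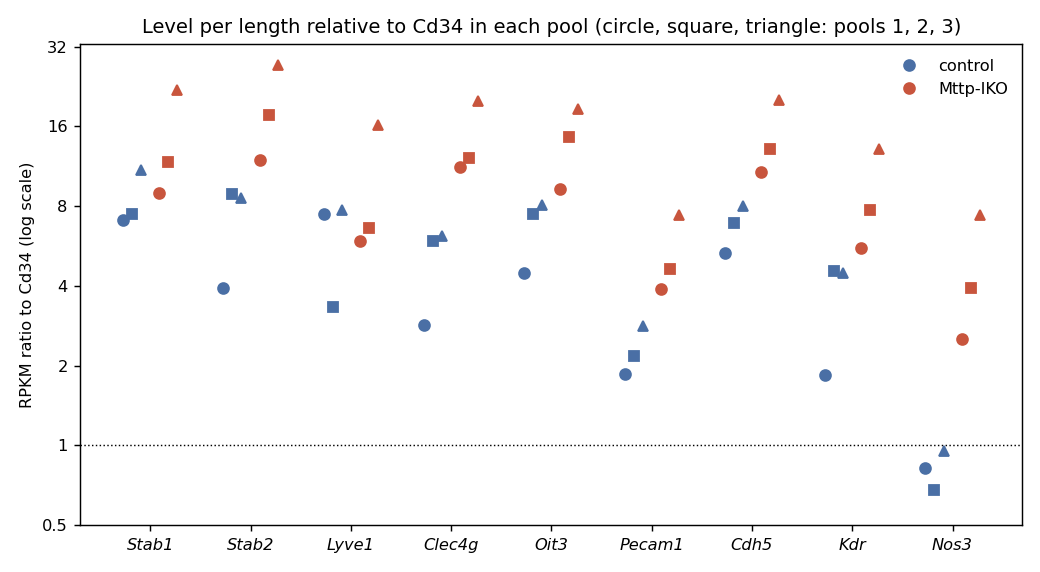
RPKM of 9 endothelial genes divided by that of Cd34 in the same pool (log scale, dotted line at 1), for control pools (blue) and Mttp-IKO pools (red), with circles, squares and triangles for pools 1, 2 and 3. The Nos3 ratio was 0.677 to 0.948 in control pools and 2.51 to 7.41 in Mttp-IKO pools, and the Stab1 and Lyve1 ratios overlapped between genotypes. The length of Nos3 includes bases shared with genes on the opposite strand.

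The 10 genes did not vary as one block across the 6 pools. As a description over 6 pools that share the difference in genotype, the log2 CPM of Stab2 followed that of Kdr (Pearson r = 0.942), and Lyve1 followed Pecam1 (r = 0.948) and Stab1 (r = 0.864). Stab1 and Stab2 ran against each other (r = -0.543), as did Stab1 and Clec4g (r = -0.833) and Nos3 and Cd34 (r = -0.789). Control pool 1 was the highest pool for Stab1, Lyve1, Pecam1, Cdh5 and Cd34 and the lowest for Stab2, Clec4g and Kdr. Among 10573 protein-coding genes, those most like the mean of the sinusoidal genes, each standardised, were Numa1, Mcrs1, Mief2, Mccc1 and Fads3 (r of 0.974 to 0.996). Those most like Cd34 were Megf6, Pfkl, Igsf11, Ddx58 and Gstm3 (r of 0.990 to 0.998). The highest of so many r over 6 pools lie near 1 for almost any profile, so these names are description only.

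Other genes of sinusoidal identity lay close to 0, with log2 fold changes of -0.13 to 0.29. Of 11 further sinusoidal genes, among them Fcgr2b, Gpr182, Dnase1l3, Ehd3, Gata4 and F8, 5 were lower and 6 higher in Mttp-IKO pools, and none passed the test. Their median log2 fold change was 0.09 (0.01 over all genes tested). The 2 with the highest average log2 CPM over the 6 pools were Maf, a transcription factor gene, and Mrc1. Maf was at 93.0 ± 2.75 and 99.7 ± 5.47 CPM in control and Mttp-IKO pools. Mrc1, the gene of the mannose receptor that sinusoidal cells share with macrophages, was at 98.7 ± 10.1 and 89.9 ± 4.25 CPM. The sum of the 11 genes was 616, 682 and 687 CPM in the controls and 663, 670.3 and 725 CPM in the other genotype, and these ranges overlapped. Of 23 further genes shared by endothelial cells, 15 were lower and 8 higher, again with none past the test and a median of -0.11. The phosphatase gene Ptprb had 221 ± 37.4 and 298 ± 39.5 CPM (log2 fold change 0.43, adjusted p = 0.234), and endoglin (Eng), a co-receptor of the TGF-beta family, had 136 ± 4.52 and 108 ± 14.1 CPM (-0.33, adjusted p = 0.261).

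Genes of capillary and arterial endothelium other than Cd34 were mostly lower in Mttp-IKO pools. Of 17 such genes 15 were tested, 12 were lower and 3 higher, and 2 fell, with a median of -0.30. Over all genes tested 49.5% were lower and 3.09% fell. Ly6a, the gene of the surface antigen Sca-1 found on capillary endothelium and on progenitor and lymphoid cells, was at 14.4, 10.7 and 12.9 CPM in the controls. In Mttp-IKO pools it was at 6.54, 4.56 and 4.95 CPM. The difference was -1.24 on the log2 scale (standard error 0.213, adjusted p = 0.0274). Esm1, which encodes the proteoglycan endocan of tip cells, was at 7.56, 1.39 and 5.09 CPM in the controls. Its Mttp-IKO values were 0.612, 0.412 and 0.252 CPM, from only 19, 12 and 6 reads. The difference was -3.43 on the log2 scale (standard error 0.652, adjusted p = 0.0340). The genotypes did not overlap in either gene, and control pool 2 was the lowest control in both. Plvap, the gene of a fenestral diaphragm protein, named here after its values were seen, was at 132 ± 12.5 and 89.3 ± 3.07 CPM without passing the test (-0.56, adjusted p = 0.0782).

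In the VEGF group, 8 of 9 genes were tested, 3 were lower and 5 higher, and 1 rose. Flt1, which encodes VEGF receptor 1, a decoy with high affinity for VEGF-A, was at 31.6, 30.6 and 28.0 CPM in the controls. The 3 Mttp-IKO pools had 48.4, 51.3 and 51.7 CPM. The difference was 0.75 on the log2 scale (standard error 0.134, adjusted p = 0.0300). The genotypes did not overlap, and the pools of each lay close together. The ligand gene Vegfa, chosen after its values were seen, was at 86.6, 135 and 116 CPM in the controls. Mttp-IKO pools 1 to 3 held 145, 179 and 179 CPM, without overlap (0.57, adjusted p = 0.152).

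Of 12 genes of the angiopoietin, Notch and ALK1 pathways, which govern vessel stability and arterial identity, 10 were lower, 2 higher and 2 fell (median -0.55). Over all genes tested 49.5% were lower and 3.09% fell. Angpt2, whose product antagonizes the receptor Tie2 in vessel remodeling, was at 5.73, 4.44 and 4.94 CPM in the controls. In Mttp-IKO pools it was at 2.68, 2.16 and 2.01 CPM. The difference was -1.14 on the log2 scale (standard error 0.237, adjusted p = 0.0425). Acvrl1, the gene of the endothelial receptor ALK1, was at 16.02, 10.7 and 14.2 CPM in the controls. Its Mttp-IKO values were 7.70, 7.06 and 5.66 CPM. The difference was -1.0 on the log2 scale (standard error 0.215, adjusted p = 0.0463). Both genes were lower in all Mttp-IKO pools than in all control pools. Gdf2, chosen after its values were seen, is the gene of the ALK1 ligand BMP9, which in liver is made largely by stellate cells. It had 35.9 ± 2.44 and 23.2 ± 4.90 CPM (-0.63, adjusted p = 0.0920).

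Of the 16 other genes of nitric oxide and endothelin signaling, 13 were lower and 3 higher with none past the test (median -0.23). The endothelin-converting enzyme gene Ece1 had 303 ± 32.8 and 407 ± 82.0 CPM (0.43, adjusted p = 0.253), and Klf2, a shear-responsive transcription factor gene that acts upstream of Nos3, had 32.7 ± 5.91 and 38.7 ± 2.53 CPM (0.24, adjusted p = 0.423) with overlapping pools. Of 7 angiocrine genes, 3 were lower and 4 higher, none past the test (median 0.03), with Cxcl12 at 311 ± 30.1 and 256 ± 37.3 CPM and Bmp2 at 35.3 ± 7.44 and 42.4 ± 10.9 CPM. Of 9 genes of leukocyte adhesion, 6 were lower and 3 higher, and the selectin ligand gene Selplg, which is expressed by leukocytes, fell. It was at 23.3, 10.3 and 17.0 CPM in the controls and at 6.38, 5.14 and 6.25 CPM in the other genotype, without overlap. The difference was -1.51 on the log2 scale (standard error 0.295, adjusted p = 0.0366). Of 4 lymphatic genes, Ccl21a was at 0 reads in every pool and the other 3 did not pass, with Prox1, which hepatocytes express too, at 196 ± 8.79 and 338 ± 104 CPM (0.79, adjusted p = 0.104) and Mmrn1 at 2.51 ± 0.326 and 0.984 ± 0.314 CPM (-1.34, adjusted p = 0.0651).

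Counted once each, these lists held 104 genes besides the first 10, of which 100 were tested, 66 lower and 34 higher in Mttp-IKO pools. Their median log2 fold change was -0.17. Of the 100, 5 fell (beside 3.09% of all genes) and 1 rose. The 6 calls rested on the test, the scaling and particular pools. All 6 passed with the DESeq2 Wald test. With limma-voom Flt1 and Ly6a passed, while Esm1 (adjusted p = 0.108), Angpt2 (0.0533), Acvrl1 (0.0641) and Selplg (0.0657) did not. With scaling by total counts only Flt1 (0.0569) was lost. None of the 6 remained without control pool 1 (adjusted p of 0.115 to 0.182 over the 6 genes), without control pool 3 (0.112 to 0.178), without Mttp-IKO pool 1 (0.0613 to 0.0845) or without Mttp-IKO pool 2 (0.119 to 0.151). Without control pool 2 all but Flt1 (0.0584) remained, and without Mttp-IKO pool 3 only Flt1 and Ly6a did. With the replicate number as a block, Flt1 (adjusted p = 0.0567), Angpt2 (0.0594) and Acvrl1 (0.0615) no longer passed, and Ly6a, Esm1 and Selplg did. Every direction was kept in each of these fits, and all 6 genes passed with control pool 2 and Mttp-IKO pool 3 left out together (0.00273 to 0.0312). Control pool 2 was the lowest control for each of the 5 that fell, so leaving it out had to raise their control means.

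**Figure D4:**
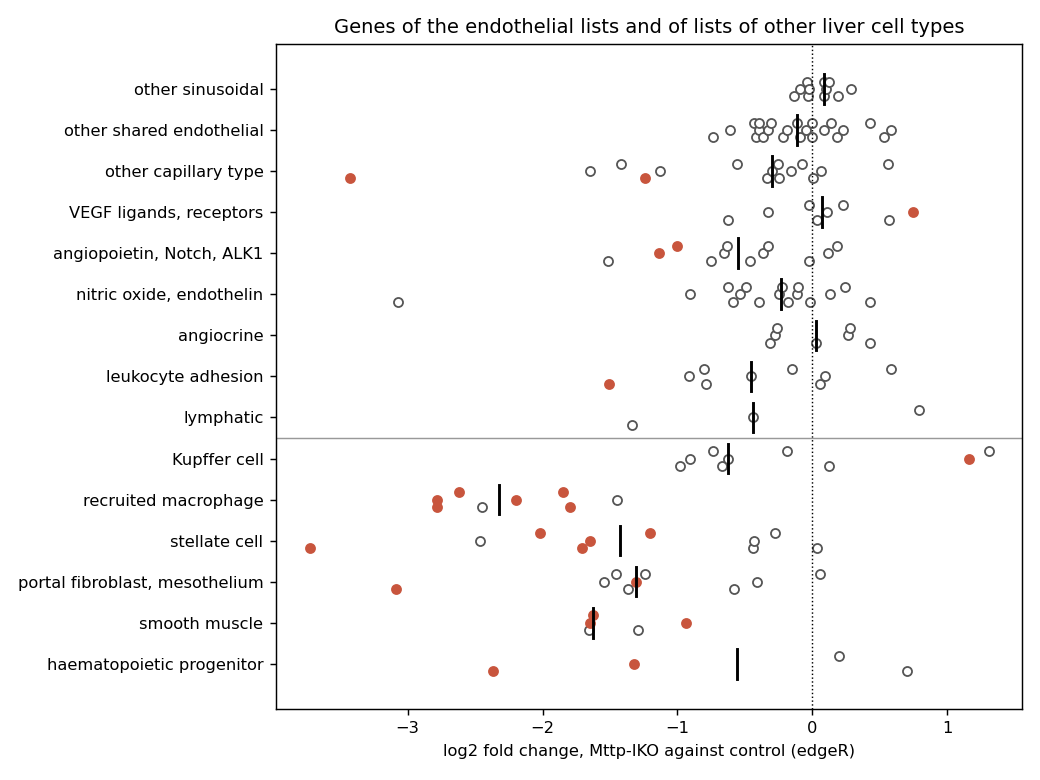
The log2 fold change (horizontal axis, Mttp-IKO against control, edgeR) of each tested gene in the endothelial lists (above the grey line) and in lists of other liver cells (below it), with filled points for an adjusted p under 0.05 and black bars for list medians. The further sinusoidal genes lie around 0 with a median of 0.09, and those of recruited macrophages lie below 0 with a median of -2.32.

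Lists of several other liver cell types had medians well below 0, and some of their cells share genes with sinusoidal endothelium. Over all genes tested 49.5% were lower and 3.09% fell. The 8 genes of recruited macrophages (Gpnmb, Lyz2 and Cd68 with the highest average log2 CPM) summed to 1091, 452 and 1189 CPM in control pools and to 191, 243 and 205 CPM in Mttp-IKO pools, and 6 of the 8 fell (median -2.32). The 9 Kupffer cell genes summed to 995, 608 and 884 CPM and to 864, 643 and 433 CPM, with 6 lower, 3 higher and 1 that rose, Timd4 (median -0.62). Stab1, Lyve1 and Mrc1 can be expressed by macrophages as well. Control pool 2 was the lowest control for both macrophage sums and for Stab1 and Lyve1, and the part of macrophages in these values was not tested. The 10 stellate cell genes summed to 960 to 1361 CPM in control pools and to 638 to 733 CPM in Mttp-IKO pools, with 9 lower and 5 that fell (median -1.43). Of the 7 hepatocyte genes 6 were higher with none past the test (median 0.70), at sums of 53603 to 89166 CPM and 106407 to 161517 CPM. The 8 lymphocyte genes, of which 7 were tested, were all lower without a call.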

How the data were processed

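Liver RNA of 3 control pools and 3 Mttp-IKO pools was sequenced after depletion of ribosomal RNA. The authors aligned reads with STAR (2.5.1a, per the submitters' processing notes) to the Ensembl release 76 assembly (GRCm38) and deposited for each pool the count of uniquely aligned, unambiguous reads per gene from featureCounts (1.4.6-p5), without normalization. The authors also deposited CPM and RPKM, and both could be recomputed from the counts in each of the 6 files. The tests therefore used the counts alone, and the CPM and RPKM printed here were computed with TMM scaling (factors 0.898 to 1.11). The strand setting of the counting is not given in the sources used here. Pools were grouped by the titles in the labels. Every pair of pools of the same genotype differed by more than counting noise.

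Genes were kept by filterByExpr with default settings (minimum count 10, minimum total 15), and edgeR's quasi-likelihood test (version 4.0.16 under R 4.3.3, glmQLFTest) compared the genotypes, with adjustment after Benjamini and Hochberg over all genes tested and a threshold of 0.05. The study's methods name no tool for this comparison. The standard error was taken as the size of the log2 fold change divided by the square root of the F statistic, and 95% intervals used the degrees of freedom of the test. Simulated counts with known changes were used to check the tests. RPKM used the gene lengths given in the deposited files. At depths of 25271585 to 36238734 reads 0 reads in a pool leave room for up to 3, a limit that covers counting error only.

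The 10 genes and all lists were chosen with earlier results of these data known. The genes named are the 10, the genes of each endothelial or pathway list that passed (or the 2 most abundant where none did), up to 3 abundant genes of each list of another cell type, and the 5 genes most like the sinusoidal mean and Cd34 by Pearson correlation of log2 CPM; others are said to be chosen after their values were seen. Further genes named without values illustrate a list's content. Start site sequences came from RefSeq (GRCm38.p6), and primers were matched to 141767 GENCODE M21 transcripts. Shared exonic bases were counted on the exon coordinates given in the deposited files, and the exon number of the Nos3 product came from GENCODE M21. Alternatives were other scalings, DESeq2 1.42.0, limma-voom (limma 3.58.1), robust dispersion, other filters on low counts, a restriction to protein-coding genes, removal of the loess trend (span 0.3) with gene length, the replicate number as a block, other thresholds, and leaving out pools. Plots used matplotlib 3.10.9 (Python 3.11.15).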

Additional observations from a re-analysis of the deposited data

How the results depend on the processing

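Of the 17287 genes tested, 694 passed (77.1% of them lower), and 0 of the 10 endothelial genes and 6 of the 100 list genes did. The counts for all genes, the 10 genes and the list genes were 1019, 1 and 11 with scaling by total counts (907 lower and 112 higher, 89.0% lower, with the median of all genes moved to -0.17), 1995, 2 and 17 with the DESeq2 Wald test, 428, 0 and 2 with limma-voom, 2146, 2 and 18 without control pool 2 and Mttp-IKO pool 3 together, 1658, 2 and 16 at a threshold of 0.1 and 5, 0 and 0 at a threshold of 0.01. Without a filter and with the gene length trend removed 2 of the 10 passed. Leaving out single pools gave counts from 0 (without Mttp-IKO pool 2, with 3221 genes at an unadjusted p under 0.05) to 892 genes, from 0 to 0 of the 10 and from 0 to 6 list genes; without control pool 1, control pool 3 and Mttp-IKO pool 1, 24, 21 and 55 genes passed. Among the 10, the log2 fold changes that passed were those of Cd34 (DESeq2 -1.22, total counts -1.42, no filter -1.25), Nos3 (DESeq2 1.12, no filter 1.07, length trend removed 1.08), Stab1 (length trend removed -0.69, both pools out -0.84) and Lyve1 (both pools out -1.38). The sign changed for Kdr (-0.0071 with upper-quartile scaling, -0.15 with total counts, -0.0065 without a filter, -0.060 with the length trend removed, -0.19 without control pool 1, -0.057 without Mttp-IKO pool 3, and -0.19 to 0.17 over single pools left out), Stab2 (-0.025 with total counts, -0.031 without control pool 1, and -0.031 to 0.29 over single pools left out) and Maf (-0.077 with total counts). The cause of these changes was not tested.

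With the replicate number as a block, 592 genes, 1 of the 10 (Cd34, -1.25, adjusted p = 0.0437) and 5 list genes passed. Of the 6 list genes called without it, Flt1 (adjusted p = 0.0567), Angpt2 (0.0594) and Acvrl1 (0.0615) were lost. Same-numbered pools correlated at 0.139, 0.112 and 0.007 in their deviations from the group means. Pairs with different numbers ran from -0.125 to 0.0208, the highest being Mttp-IKO pool 3 with control pool 2. Whether same-numbered pools share more than a number was not tested. The excess of the sinusoidal mean over Cd34 was higher in Mttp-IKO than in control pools by 0.74 to 1.32 (log2) with each pool left out.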
